A study of Mus musculus with 8 samples.

Results

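Matricellular proteins are secreted glycoproteins that sit in the extracellular matrix and tune how cells adhere, move and respond to growth factors, in contrast to the collagens that bear load. The 10 genes described here encode the thrombospondins *Thbs1*, *Thbs2* and *Thbs3*, the tenascins *Tnc* and *Tnxb*, the fasciclin-domain proteins *Postn* (periostin) and *Tgfbi*, the collagen-binding proteins *Sparc* and *Fn1* (fibronectin, which also forms fibrils of its own), and *Cthrc1* (collagen triple helix repeat containing 1). They were taken by symbol from the 54532 gene identifiers of the count files, and each symbol matched 1 identifier. Thrombospondin 1 can release TGF-β from its latent complex, and several of these genes, *Tgfbi* by its very name, are known as targets of TGF-β in fibroblasts and other mesenchymal cells.

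RNA was sequenced from primary cultures of pericytes, the mural cells of capillaries, which came from the brains of wild-type mice (genotype label WT). TGF-β1, at a stated 5 μg per mL, was added to 4 cultures and vehicle to the other 4, and all were sampled at 48 h. This dose is printed as the sources give it, although it is far above those usual in culture, and its unit could not be checked from the counts. Per the study's methods the cells had been expanded over several passages in medium with serum and growth factors, and those methods give ages and strain backgrounds for the mice of the study without tying them to the donors of these pericytes. Those methods speak of 4 independent isolates that received both treatments. The labels, however, number the vehicle cultures 1 to 4 and the TGF-β1 cultures 5 to 8, so the groups were compared as unpaired.

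Each library held 45255235 to 47651397 counts, so that 3 counts correspond to 0.0630 to 0.0663 CPM (the usual unit of a count scaled to the size of its library). The libraries carried the pericyte markers *Pdgfrb*, *Cspg4*, *Notch3* and *Anpep*, but 5 of the 10 listed pericyte markers (*Kcnj8*, *Abcc9*, *Des*, *Vtn* and *Higd1b*) stayed under a mean of 1 CPM in both groups. The 10 summed to 414 to 434 CPM with vehicle and 569 to 591 CPM with TGF-β1, with *Pdgfrb* and *Cspg4* higher and *Rgs5* and *Anpep* lower. Of the markers of other cells, the 8 fibroblast markers summed to 1831 to 1916 CPM with vehicle and 2617 to 2749 CPM with TGF-β1, a sum carried by *Col1a1*. Of the 6 fibroblast markers that could be tested, *Col1a1* was higher and 4 were lower (edgeR adjusted p under 0.05), against 20.9% and 20.3% of all genes tested. The 8 endothelial markers summed to 472 to 486 CPM with vehicle and 475 to 501 CPM with TGF-β1, nearly all of it from *Cdh5* and *Flt1*. Among the 6 tested, *Flt1* and *Vwf* were higher and *Tek* was lower (edgeR adjusted p under 0.05, against 20.9% and 20.3% of all genes tested). *Cldn5* and *Emcn* were under a mean of 1 CPM. *Pecam1* had a mean of 1.11 CPM in both groups and was not called, nor were *Cdh5* and *Kdr*. Astrocyte markers (6 genes) went from sums of 46.5 to 52.9 CPM down to 26.9 to 29.2 CPM, a fall mostly in *Slc1a2* (mean 38.5 to 16.3 CPM). *S100b* and *Gjb6* were lower as well, *Aldh1l1* was higher (mean 5.16 to 8.79 CPM) and *Gfap* was not called. Markers of 3 further cell types were low but higher in every treated library. The macrophage and microglia sum went from 2.94 to 3.88 CPM with vehicle to 4.26 to 5.24 CPM with TGF-β1, with *Csf1r* the 1 marker called higher and *C1qb* at 0 in all 8 libraries. The oligodendrocyte sum went from 3.86 to 5.07 CPM to 5.15 to 5.70 CPM, with *Mbp* called higher. The neuron sum went from 4.23 to 5.37 CPM to 8.82 to 11.7 CPM, nearly all of the rise in *Tubb3* (mean 2.11 to 7.91 CPM). The part of these marker differences in the results below was not tested, and in bulk RNA a change in the number of cells of a type and a change in RNA per cell cannot be told apart.

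All 10 genes differed between the groups (edgeR quasi-likelihood test, adjusted p under 0.05 over 22544 genes tested), where 41.3% of all genes tested did. Of the 10, 7 were higher with TGF-β1, against 20.9% of all genes, and 3 were lower, against 20.3%. Their median log2 fold change was 0.75, compared with -0.01 over all genes tested. An adjusted p under 0.05 together with a change of more than 1 on the log2 scale was met by 6 of the 10 and by 5.41% of all genes tested, and the 4 treated values lay wholly above or below the 4 vehicle values for 10 of 10 members and for 37.9% of all genes. Of these, 7 members lay above (19.1% of all genes) and 3 below (18.8%). The members were chosen with earlier results of these data known, so these shares are descriptions and no test was made over the list. Each member also had at least 764 counts in every culture, whereas the genes tested include many with far fewer. The direction was mixed among the thrombospondins, the tenascins and the fasciclin-domain genes. *Thbs1* and *Thbs2* rose while *Thbs3* fell, *Tnc* rose while *Tnxb* fell, and *Postn* rose while *Tgfbi* fell.

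**Figure D1:**
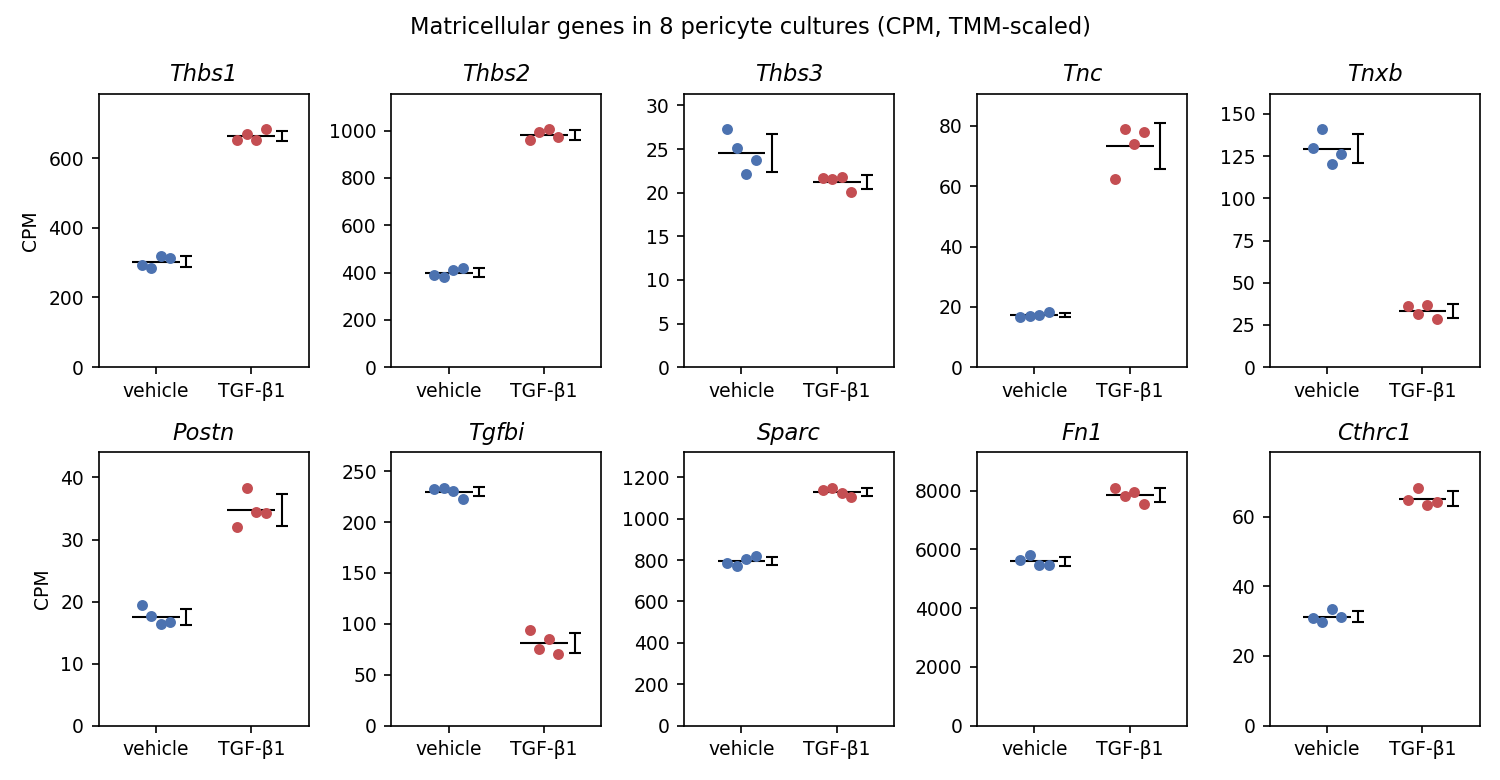
CPM of the 10 genes in each culture, vehicle in blue and TGF-β1 in red, each y axis starting at 0. Every point is 1 culture, the line is the group mean and the bar beside it is the SD (n = 4 per group). In no panel do the groups overlap, and the smallest distance between them is in *Thbs3* (lowest vehicle culture 22.1, highest TGF-β1 culture 21.8 CPM).

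The thrombospondins were examined first. *Thbs1* (chr2:118111876-118127133 of GRCm38, 22 merged exons) encodes a trimeric thrombospondin that inhibits angiogenesis and binds CD47 and integrins. Its level in the vehicle cultures was 293, 285, 319 and 313 CPM, and in the TGF-β1 cultures it was 652, 669, 653 and 683 CPM. The lowest treated culture thus stood far above the highest vehicle culture, and the log2 fold change was 1.13 with a standard error of 0.03 (edgeR adjusted p = 8.69e-26). *Thbs2* (chr17:14665500-14694235, 21 merged exons), the close relative of *Thbs1* with the same trimeric build, was at 389, 381, 411 and 418 CPM with vehicle. With TGF-β1 it was at 958, 993, 1006 and 972 CPM. This was a 2.46-fold rise (log2 fold change 1.30, standard error 0.03, edgeR adjusted p = 4.07e-33). *Thbs3* (chr3:89215180-89226837, 20 merged exons), which belongs to the pentameric thrombospondins and lacks the type 1 repeats of the trimeric pair, went the other way. Its values were 27.3, 25.1, 22.1 and 23.8 CPM with vehicle and 21.7, 21.5, 21.8 and 20.1 CPM with TGF-β1. The groups lay close together without overlap, at a log2 fold change of -0.21 with a standard error of 0.05 (edgeR adjusted p = 0.00138).

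*Thbs3* shares 6.59% of its exon bases with *Mtx1*, a gene on the opposite strand, and the strand setting of the counting is not given in the sources used here. *Mtx1* stood at 25.8 ± 0.368 CPM with vehicle and 25.7 ± 1.14 CPM with TGF-β1 (SD, n = 4 each). The thrombospondin *Thbs4* was too low to be tested, and *Comp*, its close relative, was at 1.69 ± 0.369 and 1.65 ± 0.115 CPM (SD, n = 4 each), with no change called (edgeR adjusted p = 0.906).

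Although *Thbs1* and *Thbs2* both rose, the rise was the larger for *Thbs2* in these cultures. The ratio of *Thbs1* to *Thbs2* counts within a culture was 0.755, 0.749, 0.775 and 0.749 with vehicle and 0.680, 0.673, 0.649 and 0.702 with TGF-β1. A ratio within 1 library does not depend on how libraries are scaled to each other. The mean log2 ratio moved by -0.16 (97.1% interval -0.26 to -0.09 from inverting the exact permutation test). The exact two-sided permutation p was 0.0286, the smallest that 4 against 4 cultures can give. Adjusted over the 4 pairs of genes compared it was 0.0381. That adjusted value rests in part on *Tnc* to *Tnxb* and *Postn* to *Tgfbi*, whose p was fixed by opposite changes of their genes. Without those pairs it would be larger. *Thbs2* was therefore the more abundant transcript of the pair by count in each group, and by more in the treated cultures.

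The tenascins showed the sharpest contrast. Tenascin-C is a hexameric glycoprotein of embryonic, wound and tumour stroma that is scarce in most resting adult tissue, and tenascin-X is a very large relative that binds collagen fibrils in loose connective tissue. *Tnc* (chr4:63959785-64047015, 27 merged exons) was at 16.6, 17.0, 17.4 and 18.2 CPM with vehicle and at 62.4, 78.9, 74.0 and 77.8 CPM with TGF-β1. The treated cultures were well clear of the vehicle cultures, and the spread among them was wider (SD 7.57 against 0.692 CPM). The log2 fold change of 2.08 (standard error 0.07, edgeR adjusted p = 5.03e-10) placed *Tnc* 93rd among the rises of the 22544 genes tested. *Tnxb* (chr17:34670535-34719815, 41 merged exons) was at 129.9, 141, 120.4 and 126 CPM with vehicle. In the TGF-β1 cultures it was at 36.0, 31.3, 36.9 and 28.6 CPM. The log2 fold change was -1.96 (standard error 0.09, edgeR adjusted p = 2.42e-06), a 3.90-fold fall and the 86th largest fall in the data.

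The ratio of *Tnc* to *Tnxb* counts turned over as a result. It was 0.128, 0.120, 0.144 and 0.144 in the vehicle cultures, where *Tnxb* predominated, and 1.73, 2.52, 2.00 and 2.72 in the TGF-β1 cultures, where *Tnc* did. The shift was 4.05 on the log2 scale (97.1% interval 3.59 to 4.50, exact two-sided permutation p = 0.0286, 0.0381 over the 4 pairs). Since *Tnc* was higher and *Tnxb* lower in every treated culture, this p was fixed by those changes and adds no evidence to them. In CPM divided by kilobases of merged exon (RPKM), *Tnc* went from 2.22 ± 0.0890 to 9.43 ± 0.974 and *Tnxb* from 10.6 ± 0.709 to 2.72 ± 0.322 (SD, n = 4 each), so the order was reversed on the scale that allows a comparison between genes too. The sequence shared with other genes was small. *Tnxb* had 6.41% of its words of 50 bases in transcripts of other genes, and *Tnc* had 1.04%. Exons of *8030451A03Rik*, on the opposite strand, cover 2.26% of the *Tnc* exon bases, and that gene reached 0.309 ± 0.116 CPM with vehicle and 0.559 ± 0.103 CPM with TGF-β1 (SD, n = 4 each).

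**Figure D2:**
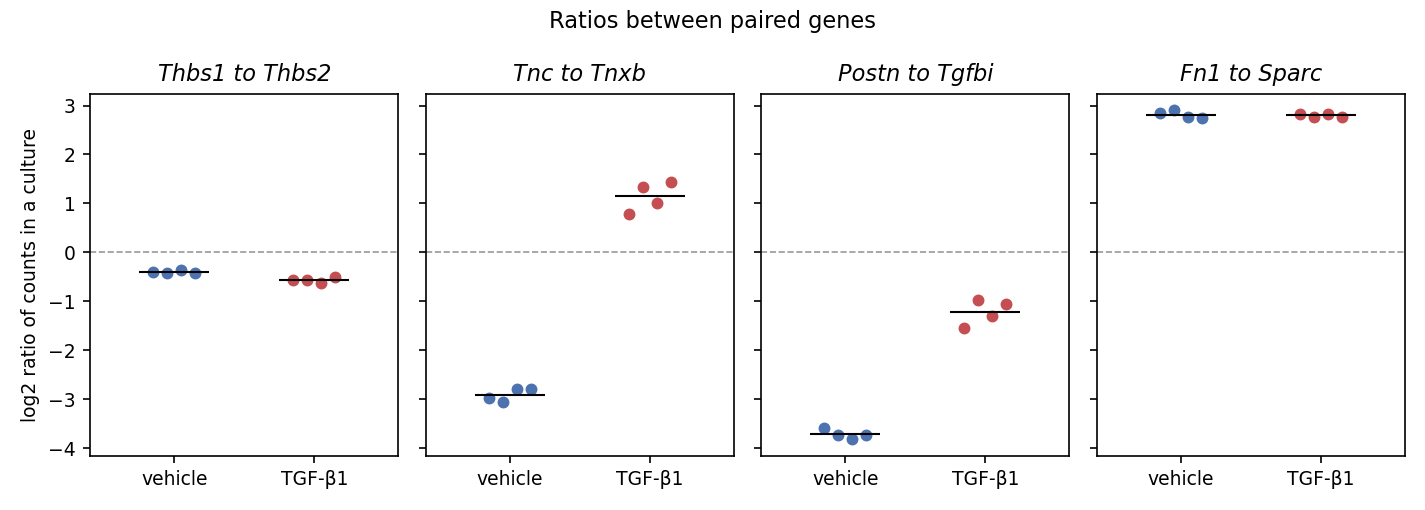
Log2 ratio of the counts of 2 genes within each culture, for 4 pairs of related genes, with vehicle in blue, TGF-β1 in red, 1 point per culture and a line at the group mean. The dashed line marks equal counts. *Tnc* to *Tnxb* crosses it (means -2.90 and 1.14), *Postn* to *Tgfbi* moves up below it (-3.72 and -1.22), *Thbs1* to *Thbs2* drops slightly, and the means of *Fn1* to *Sparc* are 2.82 and 2.80.

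Because the members of the tenascin and fasciclin-domain families moved apart, the 250 bases before the annotated start are shown for 2 genes that rose (*Tnc*, *Postn*) and 2 that fell (*Tnxb*, *Tgfbi*), from the RefSeq promoter table on GRCm38.p6, each written 5′ to 3′ on the strand of its gene. The windows are chr4:64047016-64047265 (minus strand) for *Tnc*, chr17:34670285-34670534 (plus) for *Tnxb*, chr3:54360857-54361106 (plus) for *Postn* and chr13:56609336-56609585 (plus) for *Tgfbi*. The starts are those of RefSeq, and that of *Tgfbi* lies 63 bases inside the gene as GENCODE places it. Capitals mark matches, on either strand, to CAGAC (the core of the SMAD3-binding CAGA element), TGANTCA (an AP-1 site), GGAATG (a TEAD site) or TATAAA (the TATA box).
Tnc: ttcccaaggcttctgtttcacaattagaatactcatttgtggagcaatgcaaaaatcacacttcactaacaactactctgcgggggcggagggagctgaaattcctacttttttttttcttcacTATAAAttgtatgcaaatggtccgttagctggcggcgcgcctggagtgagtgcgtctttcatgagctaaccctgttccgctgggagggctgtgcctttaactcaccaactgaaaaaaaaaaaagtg
Tnxb: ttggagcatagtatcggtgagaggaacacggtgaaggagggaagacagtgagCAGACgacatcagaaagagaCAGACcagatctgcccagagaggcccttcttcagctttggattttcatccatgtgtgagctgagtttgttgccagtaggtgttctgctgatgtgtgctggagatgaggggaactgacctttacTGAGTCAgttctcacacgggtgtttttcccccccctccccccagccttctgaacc
Postn: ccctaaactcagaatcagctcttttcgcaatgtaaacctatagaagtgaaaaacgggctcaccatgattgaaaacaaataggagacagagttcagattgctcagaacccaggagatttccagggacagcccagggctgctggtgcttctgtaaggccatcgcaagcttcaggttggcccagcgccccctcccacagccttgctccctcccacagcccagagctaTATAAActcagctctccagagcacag
Tgfbi: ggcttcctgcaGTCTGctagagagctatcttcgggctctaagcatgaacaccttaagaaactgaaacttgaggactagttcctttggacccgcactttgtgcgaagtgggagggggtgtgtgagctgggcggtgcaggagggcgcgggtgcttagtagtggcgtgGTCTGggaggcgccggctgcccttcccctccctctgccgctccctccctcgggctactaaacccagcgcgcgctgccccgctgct

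CAGAC was found in the windows of both genes that fell, 2 times in *Tnxb* and 2 times in *Tgfbi*, and in neither window shown for those that rose. *Tnc* and *Postn* each had 2 annotated windows, and only the window nearest to the GENCODE start was examined. *Tnxb* held the only TGANTCA match of the 4, which begins 55 bases before its start. *Tnc* and *Postn* each held TATAAA, beginning 126 and 26 bases before the start. Over 32817 promoter windows of the same length, CAGAC was present in 42.2%, TGANTCA in 6.75%, GGAATG in 12.6% and TATAAA in 12.4%. Of the other members in the table, *Thbs2* (risen) had CAGAC 2 times and TATAAA 1 time, *Sparc* (risen) had CAGAC 1 time in a window 3103 bases from the GENCODE start of the gene, and *Thbs3* (fallen) had no match to any of these motifs. CAGAC thus occurred in members of both directions, the 3 TATAAA matches were all in members that rose, the 1 TGANTCA match was in a member that fell, and GGAATG had no match in the 7 windows examined. The TATAAA match of *Thbs2* was on the opposite strand, beginning 126 bases before the start. Whether any match acts as a TATA box was not tested. With so few windows these are descriptions only. *Thbs1*, *Fn1* and *Cthrc1* had no entry in the table.

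Periostin and TGFBI are the vertebrate secreted proteins with repeated fasciclin domains. Both bind integrins and collagen, and periostin is a marker of activated fibroblasts. *Postn* (chr3:54361109-54391037, 22 merged exons) was at 19.4, 17.6, 16.4 and 16.7 CPM with vehicle and at 31.9, 38.4, 34.5 and 34.2 CPM with TGF-β1. The lowest treated culture was above the highest vehicle culture, and the gene rose 1.98-fold (log2 fold change 0.99, standard error 0.05, edgeR adjusted p = 3.57e-18). *Tgfbi* (chr13:56609523-56639562, 17 merged exons) was at 232, 234, 231 and 223 CPM with vehicle. With TGF-β1 it was at 93.7, 75.3, 85.0 and 70.7 CPM. This gene, first described as induced by TGF-β, fell 2.83-fold in these cultures (log2 fold change -1.50, standard error 0.09, edgeR adjusted p = 9.69e-06), the 203rd largest fall of the genes tested. No exon of another gene overlaps it, and 0.0262% of its words of 50 bases occur elsewhere. The ratio of *Postn* to *Tgfbi* counts went from 0.0835, 0.0754, 0.0711 and 0.0751 to 0.341, 0.509, 0.406 and 0.484, a shift of 2.50 on the log2 scale (97.1% interval 2.03 to 2.84, exact two-sided permutation p = 0.0286, 0.0381 over the 4 pairs). Here too the p was fixed by the opposite changes of the 2 genes, each without overlap between the groups. *Tgfbi* remained the more abundant by count in every culture.

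*Fn1* and *Sparc* were the most abundant of the 10 and moved together. Fibronectin is assembled by integrins into fibrils on which collagen and latent TGF-β complexes are laid down, and SPARC (osteonectin) binds collagen and counteracts cell spreading. *Fn1* (chr1:71585520-71653200, 45 merged exons), the 4th most abundant identifier in the libraries by mean CPM, was at 5648, 5792, 5469.9 and 5482 CPM with vehicle and at 8097, 7823, 7961 and 7528 CPM with TGF-β1. It rose 1.40-fold in all (log2 fold change 0.49, standard error 0.02, edgeR adjusted p = 3.53e-22). *Sparc* (chr11:55394500-55423183, 12 merged exons) was at 787, 771, 804 and 818 CPM with vehicle and at 1139.9, 1149, 1125 and 1105 CPM with TGF-β1. Its log2 fold change was 0.51 (standard error 0.02, edgeR adjusted p = 2.30e-23). The ratio of *Fn1* to *Sparc* ranged from 6.70 to 7.51 with vehicle and from 6.81 to 7.10 with TGF-β1. The ranges overlapped, and no difference was shown (shift -0.02 on the log2 scale, 97.1% interval -0.14 to 0.08, exact two-sided permutation p = 0.743, also 0.743 over the 4 pairs).

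*Cthrc1* (chr15:39076932-39087121, 5 merged exons) encodes a small secreted protein of injured vessels and activated fibroblasts, and the study took it as a readout of the TGF-β pathway. It was at 30.9, 29.8, 33.5 and 31.0 CPM with vehicle and at 64.6, 68.3, 63.3 and 64.3 CPM with TGF-β1. The groups were far apart relative to their spread, at a log2 fold change of 1.06 (standard error 0.04, edgeR adjusted p = 2.58e-26).

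**Figure D3:**
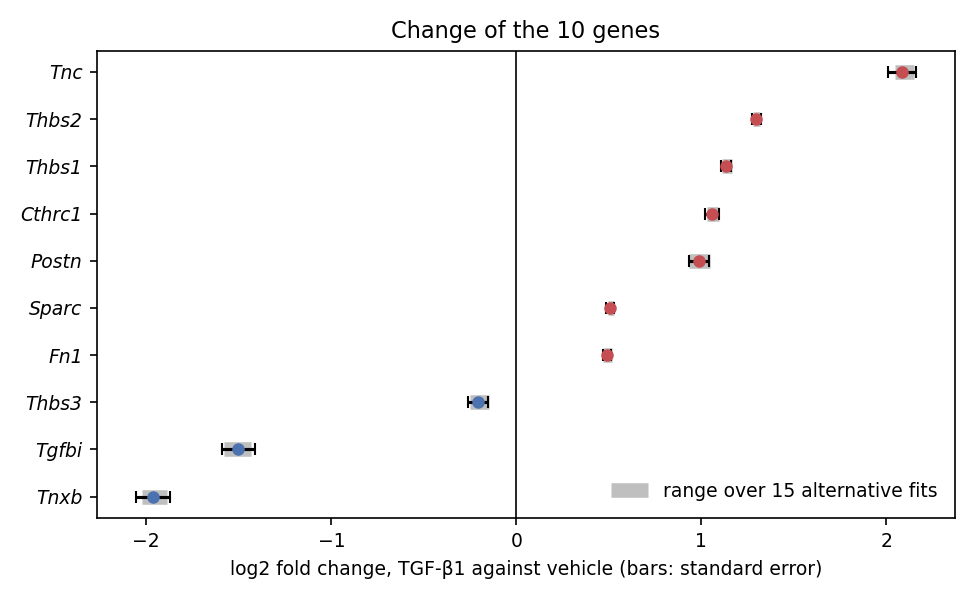
Log2 fold change of the 10 genes (TGF-β1 against vehicle) with its standard error as black bars, red where higher and blue where lower with TGF-β1. Grey bands give the range over 15 alternative fits. The values run from -1.96 (*Tnxb*) to 2.08 (*Tnc*), and no band reaches 0.

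The order of the genes changed in the middle and at the bottom of the range. Per kilobase of merged exon, the vehicle cultures expressed *Fn1* (mean 479 RPKM) above *Sparc* (209.9), followed by *Tgfbi* (61.0), *Thbs2* (57.1), *Thbs1* (49.8), *Cthrc1* (19.7), *Tnxb* (10.6), *Thbs3* (5.09), *Tnc* (2.22) and *Postn* (2.02). Neighbours overlapped between cultures in 2 cases, *Tgfbi* with *Thbs2* and *Tnc* with *Postn*. In the TGF-β1 cultures *Fn1* (672 RPKM) and *Sparc* (298) still led, now followed by *Thbs2* (140.3), *Thbs1* (109), *Cthrc1* (40.9), *Tgfbi* (21.5), *Tnc* (9.43), *Thbs3* (4.41), *Postn* (3.99) and *Tnxb* (2.72). There only *Thbs3* and *Postn* overlapped. *Tgfbi* went from the 3rd to the 6th place and *Tnxb* from the 7th to the 10th, while *Tnc* went from the 9th to the 7th. These levels rest on all annotated exons of a gene, whichever transcripts the cells made.

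**Figure D4:**
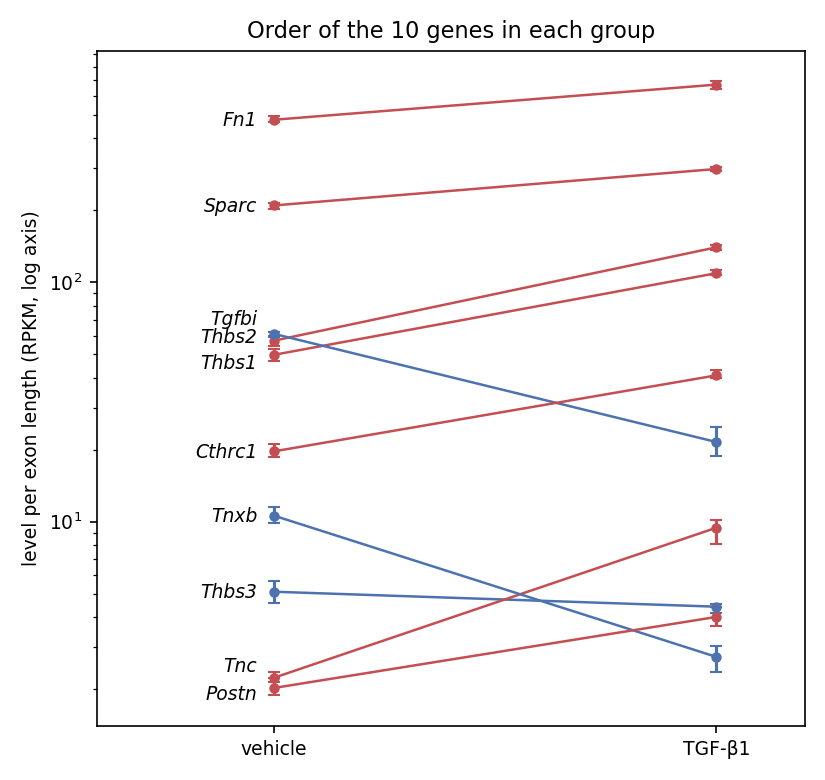
Level of each gene per kilobase of merged exon (RPKM, log axis) in the vehicle and the TGF-β1 cultures. Points are group means, bars run from the lowest to the highest of 4 cultures, and lines are red where the mean rose and blue where it fell. *Tnc* crosses *Tnxb* and *Thbs3* on the way up, and *Tgfbi* drops from 61.0 to 21.5 RPKM below *Thbs1*, *Thbs2* and *Cthrc1*.

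Together the 10 genes held 0.757% ± 0.0152 of all counts with vehicle and 1.09% ± 0.0210 with TGF-β1 (SD, n = 4 each). *Fn1* alone made up 0.561% ± 0.0182 and 0.781% ± 0.0218 (SD, n = 4 each). Without it the share of the other 9 was 0.195% ± 0.00310 with vehicle and 0.307% ± 0.00221 with TGF-β1 (SD, n = 4 each). The falls in *Tnxb* and *Tgfbi* were thus smaller in reads than the rises in *Fn1*, *Thbs2*, *Thbs1* and *Sparc*.

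Cultures of a group resembled each other to different degrees. The coefficient of variation of the 10 genes ran from 2.08% to 8.89% among the vehicle cultures and from 1.71% to 12.6% among the TGF-β1 cultures. The widest spread with TGF-β1 was in *Tgfbi* (12.6%), *Tnxb* (11.8%) and *Tnc* (10.3%), the 3 genes with the largest changes. TGF-β1 replicate 5 had the lowest *Tnc* (62.4 CPM) and *Postn* (31.9 CPM) of its group together with the highest *Tgfbi* (93.7 CPM). It also had the lowest *Thbs1* (652 CPM) and *Thbs2* (958 CPM), but the highest *Fn1* (8097 CPM). In *Cthrc1*, *Tnxb*, *Sparc* and *Thbs3* it was neither the lowest nor the highest. Replicate 8 had the lowest *Tgfbi* (70.7 CPM) and *Tnxb* (28.6 CPM). These are descriptions of single cultures with no test.

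The genes whose profile over the 8 cultures was nearest to those 3 were found among 16484 other genes with a mean of at least 1 CPM, by the root mean square distance between centred log2 CPM values. *Mmp10*, which encodes the matrix-degrading stromelysin 2, was nearest to *Tnc* at a distance of 0.0815. It went from 7.87 ± 0.538 to 36.8 ± 2.82 CPM. *Aldh1a1*, a retinaldehyde dehydrogenase that makes retinoic acid, was nearest to *Tnxb* (distance 0.0583) and went from 12.8 ± 0.717 to 3.35 ± 0.496 CPM. *Ndrg1*, a gene that responds to hypoxia and stress, was nearest to *Tgfbi* (distance 0.0590) and went from 136 ± 1.53 to 47.8 ± 3.28 CPM (SD, n = 4 each in all 3 genes).

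Further matricellular genes were read from the same fit. Of a list of 20, 17 were expressed highly enough to be tested. With TGF-β1, 9 were higher and 6 were lower (edgeR adjusted p under 0.05), against 20.9% and 20.3% of all genes tested. The median log2 fold change of the 17 was 0.37. The CCN genes, which encode matrix-bound signalling proteins, did not share a direction. *Ccn1*, *Ccn2*, *Ccn4* and *Ccn5* rose and *Ccn3* fell. *Ccn2* (connective tissue growth factor) was at 209, 216, 248 and 241 CPM with vehicle and at 462, 513, 475 and 515 CPM with TGF-β1 (log2 fold change 1.10, standard error 0.07, edgeR adjusted p = 1.47e-05). *Ccn5* rose from 1.23 ± 0.309 to 3.06 ± 0.674 CPM. The relatives of *Sparc* also divided. *Sparcl1*, the closest of them, fell from 2.26 ± 0.140 to 0.727 ± 0.259 CPM (log2 fold change -1.63, standard error 0.19, edgeR adjusted p = 1.44e-09), opposite to *Sparc*. *Smoc1*, *Smoc2* and *Spock2* were lower too, whereas *Spock3* rose from 0.307 ± 0.0527 to 1.04 ± 0.254 CPM and *Fstl1* rose at a high level (SD, n = 4 in each group here). *Spp1* (osteopontin), *Tnn* and *Tnr* rose as well, *Ecm1* fell, and *Comp* and *Ccn6* were not called. *Thbs4*, *Ibsp* and *Spock1* were too low to be tested.

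Receptors and binding partners of these proteins made up a list of 23, of which 21 were tested. With TGF-β1, 12 were higher and 5 were lower (edgeR adjusted p under 0.05), against 20.9% and 20.3% of all genes tested. The median log2 fold change of the 21 was 0.27. The largest rise was that of *Itgb3*, the β3 chain of the αvβ3 integrin that binds fibronectin, thrombospondin 1 and periostin. It was at 3.41, 3.51, 3.68 and 3.75 CPM with vehicle and at 11.3, 14.6, 12.6 and 14.6 CPM with TGF-β1 (log2 fold change 1.89, standard error 0.09, edgeR adjusted p = 3.18e-22). *Itgb5*, the β5 partner of the same αv chain and far more abundant, rose from 232 ± 6.95 to 449.8 ± 11.6 CPM, and *Itgav* itself, *Itga5* and *Itgb1* rose too. Among the other β chain genes of the list, *Itgb8* fell from 31.2 ± 1.95 to 21.4 ± 0.640 CPM and *Itgb6* was not called. *Itga8*, whose α8β1 integrin binds fibronectin and tenascin-C, fell from 50.6 ± 2.77 to 29.5 ± 2.60 CPM. *Stab1*, a scavenger receptor that takes up SPARC, rose at a low level, from a range of 0.759 to 1.03 CPM to a range of 1.55 to 2.33 CPM (SD, n = 4 each, for the means above). The thrombospondin receptor *Cd47* was among the 5 that fell, and *Cd36*, the other classical receptor, was too low to be tested.

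Type 1 repeats of thrombospondins carry sugars that are added in the endoplasmic reticulum. Of 4 enzyme genes for this step, 2 were higher and 1 was lower (edgeR adjusted p under 0.05), against 20.9% and 20.3% of all genes tested. *Dpy19l1*, which encodes a C-mannosyltransferase, was at 81.3, 83.2, 86.2 and 81.2 CPM with vehicle and at 159.9, 174, 169 and 176 CPM with TGF-β1 (log2 fold change 1.03, standard error 0.03, edgeR adjusted p = 9.08e-30). *Dpy19l3*, of the same family, rose from 43.8 ± 1.75 to 50.3 ± 1.41 CPM. The O-fucosyltransferase gene *Pofut2* fell from 121 ± 2.92 to 111 ± 3.53 CPM. *B3glct*, which extends the fucose, was at 22.7 ± 0.721 and 21.4 ± 0.978 CPM (edgeR adjusted p = 0.199, SD with n = 4 in each group here).

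**Figure D5:**
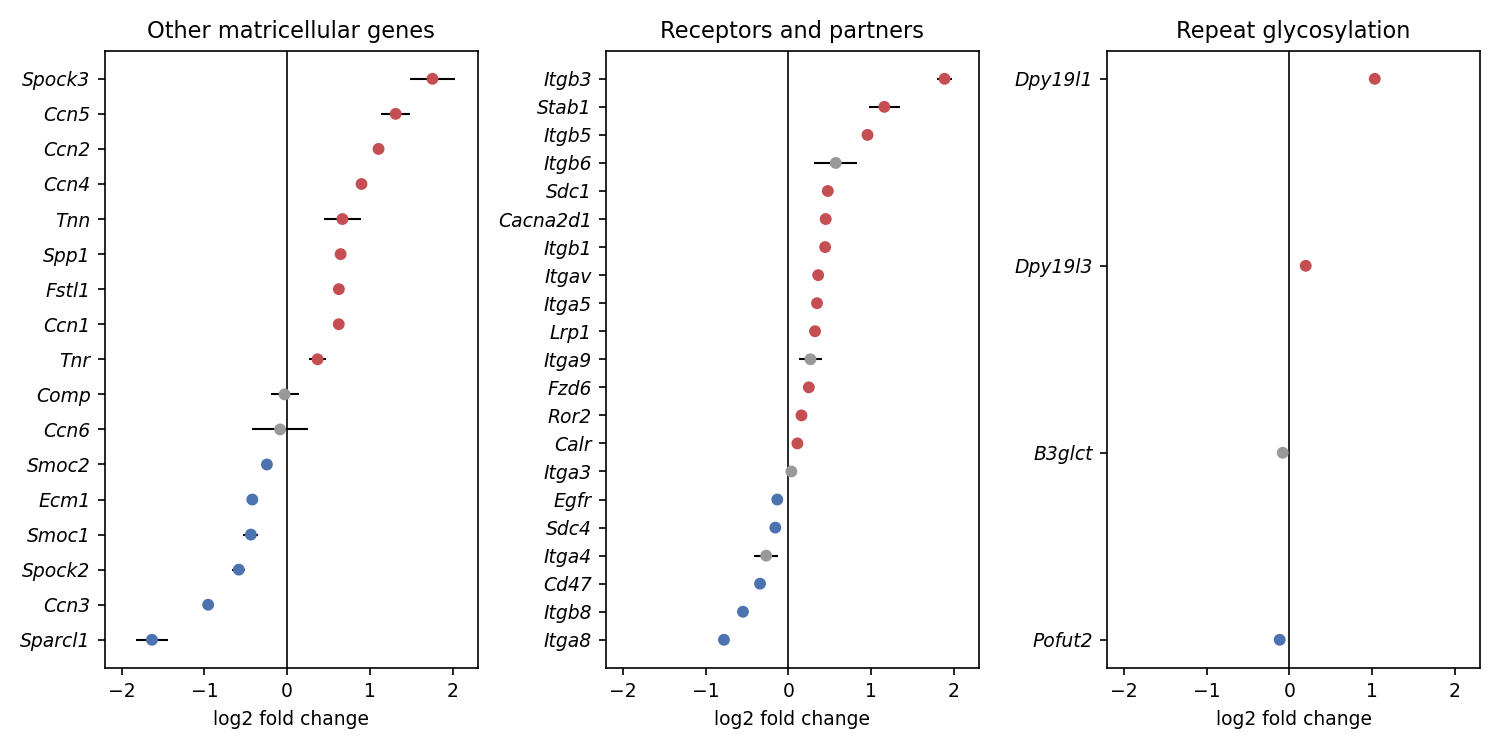
Log2 fold change (TGF-β1 against vehicle) with its standard error for 17 other matricellular genes, 21 receptors and binding partners and 4 enzymes that glycosylate thrombospondin repeats. Red points are higher and blue points lower at an edgeR adjusted p under 0.05, and grey points are not called. *Spock3* (1.76), *Itgb3* (1.89) and *Dpy19l1* (1.03) lie farthest to the right in their panels.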

How the data were processed

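Bulk RNA-seq counts of 8 pericyte cultures (4 with vehicle, 4 with TGF-β1) were used. Per the methods and the submitters' processing notes, the authors used STAR 2.7.5c for alignment to mm10 and SAMtools 1.15 to take out PCR duplicates, and deposited raw counts per Ensembl gene from featureCounts 2.0.3, without normalization. The strand setting, the gene annotation and the treatment of multi-mapping reads are not given in the sources used here. Identifiers were paired with symbols and positions in GENCODE M21 (GRCm38, the assembly of mm10), which gave 54409 of 54532 a symbol.

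Counts were tested in R 4.3.3 with edgeR 4.0.16 (filterByExpr, TMM factors, robust quasi-likelihood fit, Benjamini-Hochberg adjustment over 22544 genes, threshold 0.05). CPM values use the TMM-scaled totals, and RPKM divides them by merged exon length. The standard error is the log2 fold change divided by the square root of F. Log2 CPM for the profile search had a prior count of 2. Ratios between members had 0.5 added to each count and were compared by exact two-sided permutation over 70 splits. The depth per culture and its CPM floor are given with the results, and cover counting error only. Among counts from 1 to 20, 68.5% to 70.2% were even, so that reads may have been counted per mate. Within groups, pairs of cultures differed by a chi-square per degree of freedom of 2.25 to 3.93, or 1.14 to 2.10 with counts per fragment, where sampling noise gives 1, and each culture was counted as 1 replicate. The adjusted p values rest on this spread, and it could not be told from the counts whether the cultures came from separate isolates. The code was tested on simulated data.

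Members and gene lists were chosen with earlier results of these data known. Named genes are all members, the 4 largest called changes in each of the lists of other matricellular genes and of receptors, all 4 glycosylation enzymes and the nearest profile to each of the 3 members that changed most. Other genes named by symbol or value (*Comp*, *Mtx1*, *8030451A03Rik*, markers and further list members) complete a list or bear on a member, and were chosen after their values were seen. Alternatives were DESeq2 1.42.0 (the tool of the study), DESeq2 size factors, library totals or upper-quartile factors in edgeR, other filters (1 count or more in any culture, 10 or more in every culture), counts halved to fragments, an offset of 5 counts for ratios, and each culture left out.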

Additional observations from a re-analysis of the deposited data

Results flagged for a closer look

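In 60 groups of 4 values (the named genes, the ratios and the library totals), 3 had a culture far from the other 3, and chance at about 1 in 20 gives 3. *Thbs3* was at 20.1 CPM in TGF-β1 replicate 8, with the nearest culture at 21.5 CPM. *Sparcl1* was at 1.11 CPM in TGF-β1 replicate 5, with the nearest at 0.633 CPM. *Dpy19l3* was at 52.4 CPM in TGF-β1 replicate 7, with the nearest at 49.7 CPM.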

How the results depend on the processing

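The direction and the call of each of the 10 members held in all 15 alternative fits. The smallest change, that of *Thbs3*, ranged from -0.25 to -0.15 on the log2 scale with an adjusted p of at most 0.0268. The median log2 fold change of all genes stayed between -0.02 and 0.00 in these fits, and the number of genes called lay between 8559 and 9311. The list counts moved by at most 1 gene. Of the ratios, that of *Fn1* to *Sparc*, with no difference called, ranged from -0.043 to 0.012 with each culture left out and had a sign opposite to the main value without vehicle replicate 2 (0.012). No paired analysis was possible because the labels number the vehicle cultures 1 to 4 and the treated cultures 5 to 8. Counts per gene do not separate transcripts, so the splice forms of *Fn1*, *Tnc* and *Postn* were not analysed here. Exact tests of 4 against 4 cultures cannot give a p under 0.0286.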
